A study of Mus musculus with 2 samples.

Results

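Cartilage spots were defined in spatial gene expression sections of mouse femur as spots under tissue that lay outside the bone region listed by the study, held at least 500 UMIs (unique molecular identifiers, each counting 1 captured probe product) and carried at least 10 UMIs of Col2a1 plus Col9a1 together. The rule found 54 such spots among the 3398 spots under tissue, 54 of 1962 (2.75%) in the Control section and 0 of 1436 in the Loaded section. Both sections came from female bone cell reporter (BCR) mice, a line with fluorescent reporters for bone forming and bone resorbing cells, which had a femoral osteotomy stabilized with an external fixator at 12 weeks of age and were euthanized at 17 weeks of age, 5 weeks after surgery. The Loaded mouse had received cyclic mechanical loading of the femur 3 times per week from week 3, and the Control mouse sham-loading on the same schedule. Each group was represented by 1 section of 1 mouse, so no test between groups was possible, spots of a section are not replicates, and all intervals below cover counting error only.

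Cartilage is a tissue of few cells in abundant matrix. Its fibrils are built from collagen II with collagens IX and XI, and they hold aggrecan, a large proteoglycan whose sulfated chains bind water, which is anchored to hyaluronan by link protein. In a long bone, cartilage persists at the joint surface and in the growth plate, and it forms transiently in a fracture callus, where hypertrophic chondrocytes producing collagen X precede bone. The factor SOX9 drives the collagen and aggrecan genes of chondrocytes.

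The cartilage spots held 93987 UMIs in all, from 521 to 6947 per spot with a median of 1014.5, against a median of 2376.5 in the 1844 other Control spots of at least 500 UMIs and 3478 in the 131 bone region spots. They detected a median of 618 genes per spot. The limit cut a continuous range: 6 Control spots stood at 10 UMIs of the pair and 5 at 11, while 6 spots stood at 9 and 13 at 8 just outside. No bone region spot of the Control section exceeded 4 UMIs of the pair.

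The label was checked on the 3 of its 5 marker genes that the rule did not use. Acan, which encodes aggrecan, had 22 UMIs in 19 of the 54 spots. Matn3, which encodes the cartilage matrix protein matrilin 3, had 11 UMIs in 8 spots. Sox9 had 6 UMIs in 6 spots, below the 10 UMIs required of a gene. All 3 were higher per spot than in the other spots, although most cartilage spots held no UMI of them, so the label rests on the collagens spot by spot and on the other markers only in the sum.

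The spots were clustered on the section. A single connected patch held 41 of the 54 spots and 83093 of their UMIs, and extended 1.2 mm along the spot columns and 0.52 mm along the rows. It lay between 2.7 and 3.9 mm from the nearest bone region spot, beyond the end of the pair of cortical strips that make up that region. The remaining 13 spots formed 6 smaller patches of 4, 4, 2, 1, 1 and 1 spots. A pair of these, with 4 spots each, lay along the right border of the captured tissue, and the map of the Control section shows them apart from the main patch.

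**Figure D1:**
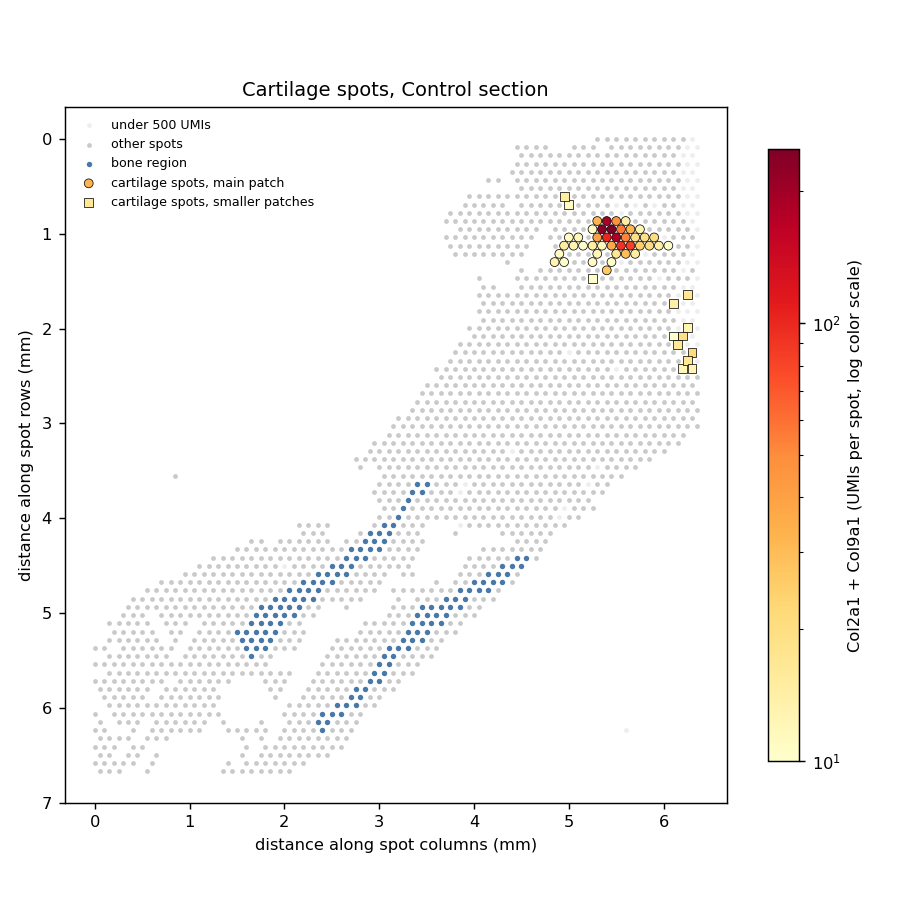
Position of every Control spot under tissue on the spot grid, both axes in mm. Light grey points are other spots, blue points the bone region, circles the 41 cartilage spots of the main patch and squares the 13 in smaller patches, colored by their UMIs of Col2a1 plus Col9a1 on a log scale. The darkest circles sit together in the upper part of the main patch, more than 2.7 mm from the bone region.

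Across the whole transcriptome, the cartilage spots were described against the other spots of the section by the log2 ratio of summed UMIs, each sum divided by the summed scran size factors of its spots. Of 2414 genes with at least 10 UMIs counted or expected in the cartilage spots, 406 (16.8%) were at least 2-fold higher there and 748 (31%) at least 2-fold lower. The median log2 ratio of these genes was -0.25. A gene that met this limit only by its UMIs in the cartilage spots had to be higher there, and one that met it only by expected UMIs lower, so counts of list members over the limit are descriptions. Of the 2414 genes, 544 met it only by their UMIs in the cartilage spots, with 291 of these at least 2-fold higher, and of the 1870 with at least 10 expected UMIs 115 were higher and 748 lower. With a limit of 10 UMIs expected from both sides together, 121 of 1871 genes (6.47%) were higher and 744 (39.8%) lower, and with 10 UMIs in all 2270 of 14683 (15.5%) and 2009 (13.7%). Over the 1023 muscle spots, 557 of 2525 genes (22.1%) were higher and 929 (36.8%) lower. The calls depended on the scaling. With library totals in place of size factors, every ratio was 0.52 larger on the log2 scale, and 749 genes were higher against 342 lower. UMIs came from probes, 1 set per gene, so levels were compared between spots and not between genes.

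Much of the contrast was shared with the tissue around the cartilage spots. Against the 191 other spots that lay within 3 spots of a cartilage spot, 91 of 2113 genes (4.31%) were at least 2-fold higher and 151 (7.15%) lower, and 69 of the 91 were among the 406 genes called against all other spots. Genes of the cartilage matrix that the rule did not use were unequal in this comparison. The log2 ratio over the near spots was 5.09 for Col9a2, 3.13 for Col9a3, 2.99 for Hapln1, 2.86 for Snorc, 2.42 for Matn3 and 1.83 for Acan, but 0.93 for Col11a2, 0.64 for Col11a1, 0.35 for Comp, 0.31 for Chad and -0.0199 for Prelp. Among the bone genes, the ratio was 1.01 for Ibsp, 0.66 for Sparc, 0.54 for Col1a1, 0.50 for Alpl, 0.42 for Dmp1, 0.26 for Col1a2, 0.14 for Bglap, 0.11 for Ctsk, 0.01 for Sost and -0.52 for Spp1. Over the gene lists, the median ratio over the near spots was 0.82 for the noncollagenous cartilage matrix, 0.29 for osteoblast, 0.22 for osteocyte and 0.21 for osteoclast genes. The ratios given below are over all other spots of the section.

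Collagens of cartilage had ratios between 2.42 and 6.71, and the genes that chose the spots are given as a description only. Col2a1 (chr15:97975602-98004695 of GRCm38, minus strand), the gene of the collagen II chain, ranged from 1 to 201 UMIs per cartilage spot with a median of 10, and summed to 1482 UMIs against 935 in all other spots, a log2 ratio of 6.71 (95% interval 6.59 to 6.83). Col9a1 (chr1:24177610-24252684, plus strand), which encodes a chain of collagen IX, ranged from 0 to 53 UMIs with a median of 6, and its log2 ratio was 6.25 (6.07 to 6.43). The 54 spots held 59.9% of all Col2a1 UMIs of the section and 48.4% of its Col9a1 UMIs.

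The other 2 chains of collagen IX met the limit only by their UMIs in the cartilage spots, so they had to be higher and are given as a description. Col9a3 had 31 UMIs in 18 cartilage spots against 42 in all other spots, a log2 ratio of 5.61 (4.89 to 6.31). Col9a2 had 20 UMIs in 14 spots against 22 in the other spots, a ratio of 5.91 (4.96 to 6.85). Both chains are needed with the Col9a1 product to form the collagen IX trimer.

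Collagen XI, which sets the diameter of collagen II fibrils, differed between its chains. Col11a2 had 154 UMIs in 45 of the 54 spots, from 0 to 13 per spot with a median of 2, and a log2 ratio of 3.59 (3.33 to 3.84). Col11a1 had 17 UMIs in 12 spots and a lower ratio of 2.42 (1.61 to 3.13). Col27a1, a fibrillar collagen of cartilage, had 27 UMIs in 18 spots and a ratio of 3.46 (2.82 to 4.06). The 6 collagens of this list of 8 that the rule did not use summed to 252 UMIs, a log2 ratio of 3.69 (3.49 to 3.89). Of the list, 7 genes met the 10-UMI limit, 5 of them only by their UMIs in the cartilage spots where they had to be higher, and Col11a2 was the single unused gene with at least 10 expected UMIs. The list as a whole made up 2.43% of the UMIs of the cartilage spots, 0.0303% of the other spots and 0.0267% of the bone region.

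Among the noncollagenous matrix proteins, the genes of lowest abundance could meet the limit only where they were largely restricted to the cartilage spots, as Snorc and Hapln1 did. Snorc, which encodes a small transmembrane proteoglycan of chondrocytes, had 15 UMIs in 12 cartilage spots and 8 in the 1844 others, a log2 ratio of 6.95 (5.62 to 8.40). Hapln1, which encodes link protein, had 14 UMIs in 9 spots and 14 in the others, a ratio of 6.05 (4.87 to 7.22). Snorc, Hapln1 and Matn3 each had 0 UMIs in the 131 bone region spots.

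Aggrecan and matrilin 3, unused markers of the label, met the limit only by their UMIs in the cartilage spots, so their place among the genes called higher is fixed by the limit, and their values are given as a description of label markers named whatever their level. The log2 ratio of Acan was 4.15 (3.40 to 4.84), with 0 to 3 UMIs per spot and 82 UMIs in the other spots. The ratio of Matn3 was 5.42 (4.18 to 6.60), with 0 to 2 UMIs per spot and 17 in the others. Over the bone region, where Acan had 23 UMIs, its ratio was smaller, at 2.47 (1.56 to 3.38). Before thinning, Acan was seen in 35.2% of cartilage spots, 10.7% of bone region spots and 2.64% of muscle spots. Thinning every spot to 500 UMIs kept all of these spots and gave 16.7%, 1.53% and 0.587%. Thinning to 1000 UMIs left 27 of the 54 cartilage and 877 of the 1023 muscle spots, so it covers other spots. It gave 25.9%, 5.34% and 0.342%.

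Comp and Chad were the most abundant members of the matrix list in UMIs and were less restricted. Comp, cartilage oligomeric matrix protein, which is also made by tendon, had 457 UMIs in 46 cartilage spots against 4488 in the others, a log2 ratio of 2.75 (2.61 to 2.89), which was 0.35 over the near spots. Chad, which encodes the leucine-rich repeat protein chondroadherin, had 127 UMIs in 35 spots and a ratio of 3.05 (2.77 to 3.31), or 0.31 over the near spots. Prelp, a matrix protein of basement membranes and connective tissue, had 104 UMIs and a ratio of 1.79 (1.49 to 2.07), which was -0.0199 over the near spots. Fmod, a collagen-binding protein of tendon and cartilage, had 69 UMIs and a ratio of 1.53 (1.16 to 1.88), or -0.0045 over the near spots. Cytl1, a secreted protein of cartilage, had a ratio of 4.26 (3.42 to 5.04), and Susd5 one of 4.03 (3.30 to 4.70). Itga10, the integrin subunit through which chondrocytes bind collagen II, had 26 UMIs in 19 spots and a ratio of 3.90 (3.23 to 4.53).

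Of 22 noncollagenous matrix genes, 20 were found by symbol and 12 met the 10-UMI limit, 8 of them only by their UMIs in the cartilage spots. The other 4 were at least 2-fold higher, against 115 of all 1870 genes with at least 10 expected UMIs. Matn1, Epyc, Mia and Crispld1 had no UMI in the cartilage spots. Crispld1 had only 22 UMIs in the other spots, and the interval of its log2 ratio reaches 3.59, so its count of 0 does not show a lower level. The summed list was 0.970% of UMIs in the cartilage spots, 0.120% in the others and 0.297% in the bone region. The plot of log2 ratios places a selection of these genes beside selected genes of bone, muscle and blood.

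**Figure D2:**
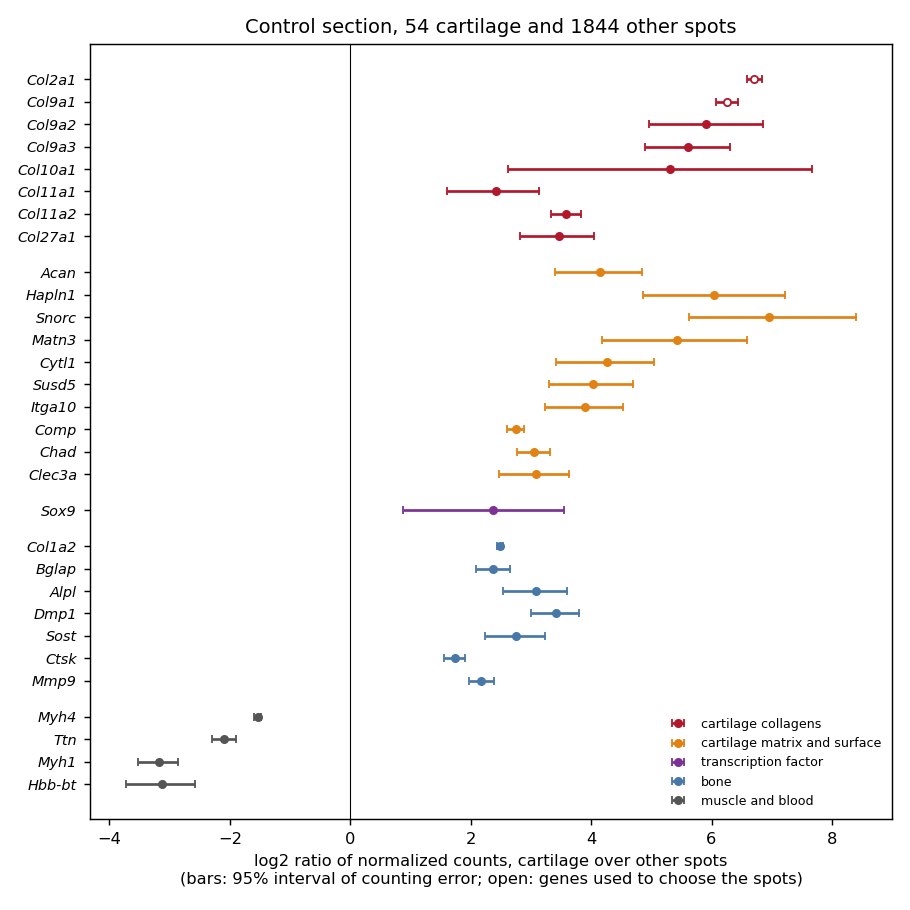
Log2 ratio of normalized UMI sums, 54 cartilage over 1844 other spots of the Control section, for genes of 5 groups, with bars for the 95% interval of counting error and open points for the 2 genes that chose the spots. The plotted genes are a selection. Among them, cartilage genes lie between 2.36 for Sox9 and 6.95 for Snorc, and bone genes between 1.73 for Ctsk and 3.41 for Dmp1. The plotted muscle and blood genes lie below 0. Cartilage and bone genes that were not plotted include lower values, such as Prelp at 1.79, Sox6 at -0.45, Col1a1 at 1.65 and Spp1 at 0.44.

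Upstream sequences are shown for 3 genes of the cartilage matrix that the rule did not use, as context for the SOX9 target genes named above. Of 11 cartilage genes looked up, 7 had a RefSeq window on GRCm38.p6. Each line gives the 250 bases before the annotated start, 5′ to 3′ on the strand of the gene, and capitals mark matches on either strand to the letters ACAAAG or ACAATG (the core of SOX binding sites), TATAAA, or CCGCCC (the core of GC boxes). The windows, genes and letters were chosen after the values were seen.
Acan (chr7:79052976-79053225, plus strand): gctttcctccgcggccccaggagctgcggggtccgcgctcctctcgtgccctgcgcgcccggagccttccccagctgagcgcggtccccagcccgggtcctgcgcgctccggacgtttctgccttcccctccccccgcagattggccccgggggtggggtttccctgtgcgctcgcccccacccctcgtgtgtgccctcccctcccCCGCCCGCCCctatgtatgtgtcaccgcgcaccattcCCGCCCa
Matn3 (chr12:8947679-8947928, plus strand): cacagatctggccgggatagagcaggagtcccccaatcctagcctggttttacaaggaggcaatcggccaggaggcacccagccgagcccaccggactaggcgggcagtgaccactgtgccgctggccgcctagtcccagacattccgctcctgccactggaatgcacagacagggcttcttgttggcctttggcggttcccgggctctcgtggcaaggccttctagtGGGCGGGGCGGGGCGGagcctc
Col11a2 (chr17:34038888-34039137, plus strand): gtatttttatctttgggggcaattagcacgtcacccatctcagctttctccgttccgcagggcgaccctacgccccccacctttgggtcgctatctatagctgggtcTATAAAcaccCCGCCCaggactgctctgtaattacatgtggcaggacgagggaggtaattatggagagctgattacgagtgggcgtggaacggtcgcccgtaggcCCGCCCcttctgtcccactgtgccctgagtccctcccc
None of the 8 windows of the 7 genes held ACAAAG or ACAATG, letters found in 16.5% and 10.7% of all 32851 windows of this length. CCGCCC occurred 3 times in the window of Acan, 3 times in that of Matn3 and 2 times in that of Col11a2, and stood in 32.7% of all windows. Among the genes not shown, it stood in the windows of Chad and Col9a2 and was absent from those of Col9a1 and Hapln1. Col11a2 also held TATAAA, 143 bases before its start, which stood in 12.4% of all windows. The window of Chad, not shown, held TATAAA 28 bases before its start. A match is a run of letters and not a measured binding site, and a window without one bears only on these letters in these bases.

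Transcription factors of the chondrocyte lineage were sparsely counted. Sox9 had a log2 ratio of 2.36 (0.87 to 3.55) from 6 UMIs, and its highest spot held 1 UMI. Nkx3-2, a repressor that maintains chondrocytes, had 8 UMIs against 19 in the others and a ratio of 4.80 (3.40 to 6.06). Runx3 and Runx2, which act in chondrocyte maturation and in bone, had 16 and 22 UMIs and ratios of 2.65 (1.81 to 3.39) and 1.62 (0.93 to 2.24). Sox6 had 7 UMIs and a ratio of -0.45 (-1.77 to 0.61), and Sox5 had none in the cartilage spots. Of 12 factors, 4 met the 10-UMI limit, 3 of them at least 2-fold higher (Trps1, a repressor of the growth plate, at 1.28) and Mef2c at least 2-fold lower at -1.66 (-2.79 to -0.73). The 3 met the limit only by their UMIs in the cartilage spots, as did 544 genes in all, of which 291 were at least 2-fold higher. Of the 1870 genes with at least 10 expected UMIs, 748 were lower.

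Signals and receptors of growth plate and joint cartilage were higher in the sum, with a log2 ratio of 1.18 (0.86 to 1.47) over 22 genes. Fgfr3, a receptor that restrains chondrocyte growth, had 11 UMIs and a ratio of 3.55 (2.48 to 4.49). Wif1 and Frzb, secreted inhibitors of Wnt signals, had 15 and 5 UMIs and ratios of 3.93 (3.01 to 4.76) and 2.81 (1.13 to 4.14). Pth1r, the receptor of parathyroid hormone-related protein, had 10 UMIs and a ratio of 2.06 (0.98 to 2.98). Its ratio ranged from 0.09 to 3.52 over the choices of spots, scaling and limit. Ihh, the hedgehog ligand of prehypertrophic chondrocytes, had 0 UMIs here and 10 in the other spots. The interval of its log2 ratio reaches 4.88, so a difference in either direction could not be told. Of the 22 genes, 4 met the limit, all only by their UMIs in the cartilage spots, while 6 had no UMI.

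Markers that separate the types of cartilage were at or near 0. Col10a1, the collagen of hypertrophic chondrocytes, had 3 UMIs in 3 cartilage spots and 5 in the others, a log2 ratio of 5.31 with an interval from 2.62 to 7.67. Prg4 and Gdf5, genes of the joint surface, had 1 and 0 UMIs in the cartilage spots. At 93987 UMIs these counts cannot place the spots in a growth plate, a joint surface or a callus. By position, the nearest cartilage spot lay 2.7 mm from the bone region, which the paper drew around the bone at the fracture site between the inner pins. The paper describes cartilage at the fracture sites as minimal. Which type of cartilage the spots held was not tested.

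The wider lists of hypertrophic and of articular cartilage contained genes that bone and fibrous tissue also express. In the hypertrophic list of 14 genes, 9 met the limit, and of the 7 with at least 10 expected UMIs 3 were at least 2-fold higher and 1 lower. Of all 1870 genes with at least 10 expected UMIs, 115 were higher and 748 lower. The median of the hypertrophic list, 1.18, turned to -0.02 over the near spots. The most abundant members of this list were Phospho1 and Ibsp. Phospho1, a phosphatase of mineralizing cells, had 62 UMIs and a ratio of 1.50 (1.11 to 1.87) that was -0.02 over the near spots. Ibsp, bone sialoprotein, had 50 UMIs and a ratio of 1.66 (1.22 to 2.07), or 1.01 over the near spots. Spp1, osteopontin, had 49 UMIs and a ratio of 0.44 (0.0029 to 0.85), which was -0.52 over the near spots. In the articular list of 12 genes, 7 met the limit. Of the 3 with at least 10 expected UMIs 1 was at least 2-fold higher, against 115 of all 1870 such genes. The list was led in UMIs by Thbs4, a matrix protein also of tendon and muscle, with 179 UMIs and a ratio of 1.00 (0.78 to 1.21) that turned to -0.40 over the near spots, and Cilp2, a protein of the cartilage matrix, turned from 1.96 (1.30 to 2.56) to -0.52. The summed log2 ratios were 0.86 (0.69 to 1.03) and 1.09 (0.93 to 1.24).

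Genes for folding and export of procollagen were higher in the sum. Serpinh1, the collagen chaperone HSP47, had 144 UMIs in 40 of the 54 spots and a log2 ratio of 2.32 (2.06 to 2.56). Creb3l1, a factor that induces secretory genes in matrix producing cells, had a ratio of 2.64 (1.69 to 3.46), and Pdia3, a disulfide isomerase, one of 0.90 (0.65 to 1.14). Of 22 genes in the files, 11 met the limit, 7 of them only by their UMIs in the cartilage spots. Of the other 4 genes, 2 were at least 2-fold higher and 1 lower. Among all 1870 genes with at least 10 expected UMIs, 115 were higher and 748 lower. The lower gene of the list was Mia3, a cargo receptor for procollagen, at -1.34 (-2.97 to -0.11). Its ratio was 0.10 when 20 UMIs of the pair were required. The summed ratio of the list was 1.17 (1.03 to 1.30). The enzymes of chondroitin sulfate synthesis, which build the aggrecan side chains, summed to a ratio of 0.59 (0.29 to 0.88), with 3 of 22 genes over the limit, 2 of them only by their UMIs in the cartilage spots. Chst11, which sulfates chondroitin, was the highest of the 3 at 3.36 (2.29 to 4.28).

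Proteases and their inhibitors summed to a log2 ratio of 1.42 (1.30 to 1.54), with 6 of 11 genes over the limit. Of the 5 with at least 10 expected UMIs, 3 were at least 2-fold higher, against 115 of all 1870 such genes. Mmp9, which osteoclasts and other cells release, had 205 UMIs in 43 spots and a ratio of 2.18 (1.96 to 2.38). Timp3, an inhibitor bound to matrix, had 180 UMIs in 47 spots and a ratio of 1.68 (1.46 to 1.90). Mmp13, the collagenase of hypertrophic cartilage and bone, had 41 UMIs and a ratio of 1.18 (0.69 to 1.63), which was -0.98 without the main patch. Mmp14, a membrane-bound collagenase, had 18 UMIs and a ratio of 1.01 (0.24 to 1.68) that turned to -1.03 without the spots of 3000 or more UMIs. Adamts4, an aggrecanase, had no UMI here and 18 in the other spots, with an interval that reaches 3.91, so no difference could be told.

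Genes of cell division and of low-oxygen metabolism were few in UMIs. The proliferation list had 12 UMIs in all, with 5 of 9 genes at 0 and a summed log2 ratio of -1.79 (-2.74 to -0.98), which was -0.63 (-1.59 to 0.18) over the muscle spots. Mki67, the division marker and the single member over the limit, had 1 UMI against 13.3 expected from the other spots, while the list median was 0.44 when spots were taken by at least 0.2% of UMIs from the pair. The list of hypoxia and glycolysis genes summed to -0.72 (-1.11 to -0.36) over the other spots and to 0.04 (-0.37 to 0.44) over the bone region, with 3 of 11 genes over the limit and Pgk1, a glycolytic enzyme, at least 2-fold lower at -1.57 (-2.70 to -0.64), a share of called genes near that over all genes. When every spot had the same weight, the ratio of Pgk1 and the median of this list were both 0.11, so their direction depended on how the spots were weighted.

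Bone genes were abundant in the cartilage spots. Col1a2, a chain of collagen I, had the most UMIs of any gene there, 4051, from 7 to 316 per spot with a median of 44, and a log2 ratio of 2.48 (2.44 to 2.53). Bglap, osteocalcin of osteoblasts, had 116 UMIs in 30 spots and a ratio of 2.37 (2.09 to 2.65). Alpl, the alkaline phosphatase needed for mineralization, had 35 UMIs and a ratio of 3.09 (2.54 to 3.60). Of 10 osteoblast genes, 9 met the limit, 6 of the 7 with at least 10 expected UMIs were at least 2-fold higher, against 115 of all 1870 such genes, and the list made up 6.01% of the UMIs in the cartilage spots, 0.908% in the others and 2.39% in the bone region.

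The 6 osteocyte genes were higher in the sum in the cartilage spots than in the bone region itself, with a log2 ratio of 3.53 (3.06 to 4.01). Dmp1, a matrix phosphoprotein of osteocytes, had 63 UMIs in 25 cartilage spots, from 0 to 15 per spot, and 28 UMIs in the 131 bone region spots, a log2 ratio over that region of 3.70 (3.04 to 4.40). Sost, the gene of the Wnt inhibitor sclerostin, had 38 UMIs against 19 in the bone region and a ratio over it of 3.53 (2.70 to 4.41). Over the near spots the ratio was only 0.42 for Dmp1 and 0.01 for Sost, so these levels were largely shared with the tissue around the cartilage spots. The sum of the 6 osteocyte genes had a log2 ratio of 3.02 (2.73 to 3.30) over all other spots, with 3 genes over the limit, all 3 only by their UMIs in the cartilage spots, while Mepe and Fgf23 had no UMI. Compared with the bone region, 337 of 2206 genes (15.3%) were at least 2-fold higher in the cartilage spots and 340 (15.4%) at least 2-fold lower.

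Osteoclast genes were higher as well, with 3 of 8 genes over the limit, all 3 at least 2-fold higher against 115 of 1870 genes with at least 10 expected UMIs, and a summed log2 ratio of 1.89 (1.77 to 1.997). Ctsk, the collagen-degrading cathepsin, had 273 UMIs and a ratio of 1.73 (1.55 to 1.91), and Acp5, the tartrate-resistant acid phosphatase, had 189 UMIs and a ratio of 1.92 (1.70 to 2.13). A spot is 55 µm wide and can cover several cells, so these counts do not say whether the same cells carried cartilage and bone genes, and a lower number of cells of a type cannot be told apart from less RNA per cell. The part of bone cells in the ratios of the cartilage genes was not tested.

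Muscle and blood were lower but present. The 22 muscle genes made up 12.6% of the UMIs of the cartilage spots, with a range over spots from 1.90% to 29.6%. They made up 30.4% in the other spots and 16.8% in the bone region. Of the 22, 21 were at least 2-fold lower, against 748 of 1870 genes with at least 10 expected UMIs. Myh4, the myosin of fast fibers, had the most UMIs of the list, 2517, and a log2 ratio of -1.54 (-1.59 to -1.48). Among genes with at least 50 UMIs expected in the cartilage spots, the 10 with the lowest ratios were, beside Hbb-bt, mostly genes of muscle. Myh7, the myosin of slow fibers, stood at -6.09 (-9.13 to -4.24) with 2 UMIs, Myh2, the myosin of another fast fiber type, at -5.58 (-7.86 to -4.03) with 3 UMIs, and Tnnt1, the slow troponin T, at -5.26 (-8.30 to -3.40) with 2 UMIs. Actn2, Ckmt2, Ampd1, Myot, Ndufb1-ps and Myh1 lay between -3.69 and -3.18. The erythroid list summed to -2.61 (-2.76 to -2.47), with 5 of 6 genes over the limit and all 5 lower, and Hbb-bt, a beta globin, had 27 UMIs and a ratio of -3.12 (-3.72 to -2.58).

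The other tissue lists moved less. The tendon and fibrous list had 8 of 12 genes over the limit. Of the 6 with at least 10 expected UMIs, 2 were at least 2-fold higher, against 115 of all 1870 such genes. The list had a log2 ratio of 1.01 (0.90 to 1.11) over the other spots. Over the bone region the ratio was -0.09 (-0.20 to 0.02), which did not differ beyond counting error. Of the 1870 genes with at least 10 expected UMIs, 748 were lower, against which the next 2 lists are to be read. Granulocyte genes, of which 3 of the 4 over the limit were at least 2-fold lower, summed to -1.26 (-1.71 to -0.86), and adipocyte genes, of which all 4 over the limit were lower, to -1.40 (-1.71 to -1.11), although the adipocyte sum was 0.79 (0.44 to 1.13) over the bone region. Both directions depended on the limit of the rule: the median of the granulocyte list turned from -1.22 to 0.66 when spots were taken by at least 0.2% of UMIs from the pair, and that of the adipocyte list from -1.50 to 1.29 at 5 UMIs of the pair. The adipocyte genes Adipoq and Fabp4 had 5 and 26 UMIs in the 54 spots. Macrophage genes summed to 0.40 (0.03 to 0.74) over the other spots, but to -0.38 (-0.76 to -0.014) over the bone region. Csf1r, the receptor of a macrophage growth factor, was 1 of 2 genes over the limit, met only by its UMIs in the cartilage spots. The median of the macrophage list, 1.00, was -0.32 at 5 UMIs of the pair. Endothelial genes, of which none of 8 met the limit, summed to -0.39 (-0.97 to 0.14), and the Schwann cell genes, of which 2 of 8 met it and neither was called, to 0.27 (-0.20 to 0.70), both with intervals that include 0. The Schwann cell sum was -0.89 (-1.37 to -0.44) over the bone region and 1.08 (0.61 to 1.52) over the muscle spots.

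The 20 genes with the highest ratios among those with at least 20 UMIs in the cartilage spots and 50 in the section, a limit that Col9a2 missed, combined these groups. Beside the collagens, Acan, Susd5, Itga10, Chad and Comp, they included the bone genes Dmp1, Alpl and Sost. They also held Tnn, the matrix protein tenascin W, at 3.52 (2.95 to 4.05), and Clec3a, a cartilage lectin, at 3.08 (2.47 to 3.64) with 29 UMIs here and 1 in the bone region. Over the choices of spots, scaling and limit, the ratio of Clec3a ranged from 0.07 to 5.32. The remaining members were Ptgis, Col22a1, Cgref1, Cspg4 and Col16a1, with ratios between 2.97 and 3.32.

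The 54 spots differed widely among themselves in depth and in their share of the collagen pair. The pair made up from 0.158% to 23.0% of the UMIs of a spot, with a median of 2.17%. The 9 spots of the main patch with 3000 or more UMIs held 49096 UMIs, more than the 33997 of the other 32 spots of the patch, yet they had 93 UMIs of Col2a1 against 1307. Deep spots of the main patch thus entered on few UMIs of the pair, and 8 of them held 10 to 15.

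A fixed number of UMIs of the pair asks for a higher share in a shallow spot, so the difference in Col2a1 by depth, a log2 ratio of deep over shallow spots of -4.46, is not independent of the rule, and how much of it the rule accounts for was not tested. The ratio of Col11a2 was -3.23 (-3.99 to -2.54). Acan was lower in the deep spots too, at -1.65 (-3.20 to -0.24), and the bone genes Bglap and Dmp1 stood at -3.39 (-4.35 to -2.54) and -2.97 (-4.19 to -1.92). Prelp was higher in the deep spots at 1.51 (0.74 to 2.37), as were Thbs4 at 1.48 (0.90 to 2.09) and Myh4 at 1.16 (1.02 to 1.31). Muscle genes made up 16.1% of the UMIs of the deep spots and 8.72% of the shallow ones. The cartilage collagens made up 0.342% and 5.60%, mostly through the pair that the rule used. The 6 collagens outside the pair made up 0.0652% of the UMIs of the deep spots, 0.588% of the shallow ones, 0.184% in the 13 spots outside the main patch and 0.0221% in the bone region.

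**Figure D3:**
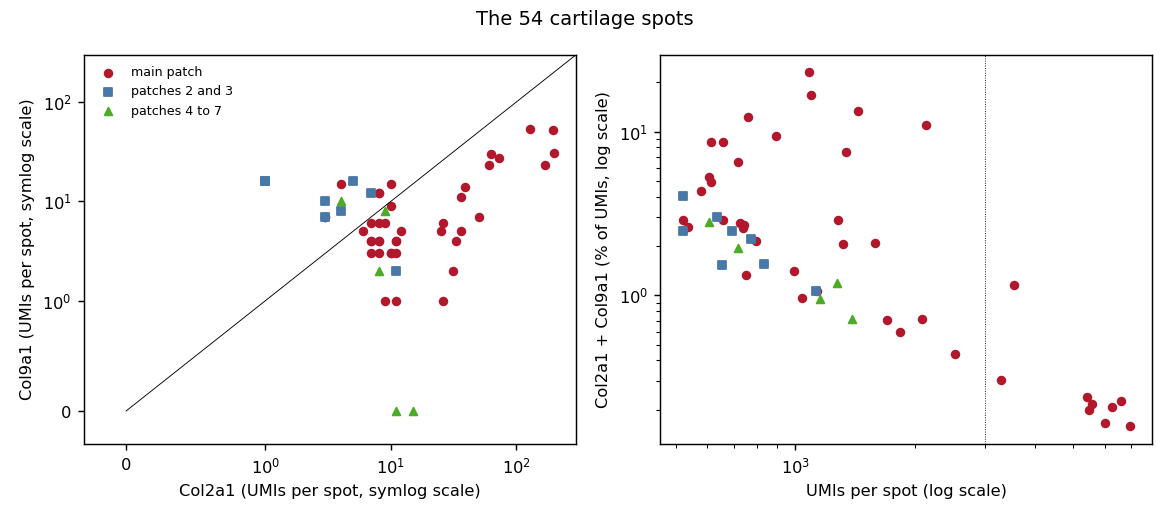
The 54 cartilage spots as points. Left, UMIs of Col2a1 and Col9a1 per spot on symmetric log scales with the line of equality. Right, the share of the pair in percent of UMIs against UMIs per spot, both on log scales, with a dotted line at 3000 UMIs. Most spots of the main patch lie below the line of equality, those of patches 2 and 3 mostly above it, and 8 of the 9 spots over 3000 UMIs have shares of at most 0.305%, below all other spots.

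The ratio of Col2a1 to Col9a1 UMIs, which depends on the probes in each patch alike, varied between the patches. It was 3.18 in the main patch, with 1400 and 440 UMIs. In the 2 border patches of 4 spots it was 0.311 and 0.5, with 14 and 21 UMIs of Col2a1 and 45 and 42 of Col9a1. In the patch of 2 spots, at the upper left of the main patch, Col2a1 had 26 UMIs and Col9a1 none, and Comp and Chad had 70 and 49 UMIs in only 2423 UMIs of depth. The 3 single spots had 9, 4 and 8 UMIs of Col2a1 and 8, 10 and 2 of Col9a1. Since the rule used the sum of the pair, the ratio of both genes is described and not tested.

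Outside the main patch, the 3 unused markers were almost absent. The 13 spots there held 10894 UMIs, 1 of Acan, 1 of Matn3 and 0 of Sox9, and Hapln1 and Snorc had none. The log2 ratio of the main patch over these spots was 1.37 for Acan with an interval from -1.27 to 6.74, so a difference was not detectable at this depth, and the cartilage label rested there on the collagens. Without the main patch, 45 of 158 genes were at least 2-fold higher and 33 of the 406 genes called with all 54 spots were shared.

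**Figure D4:**
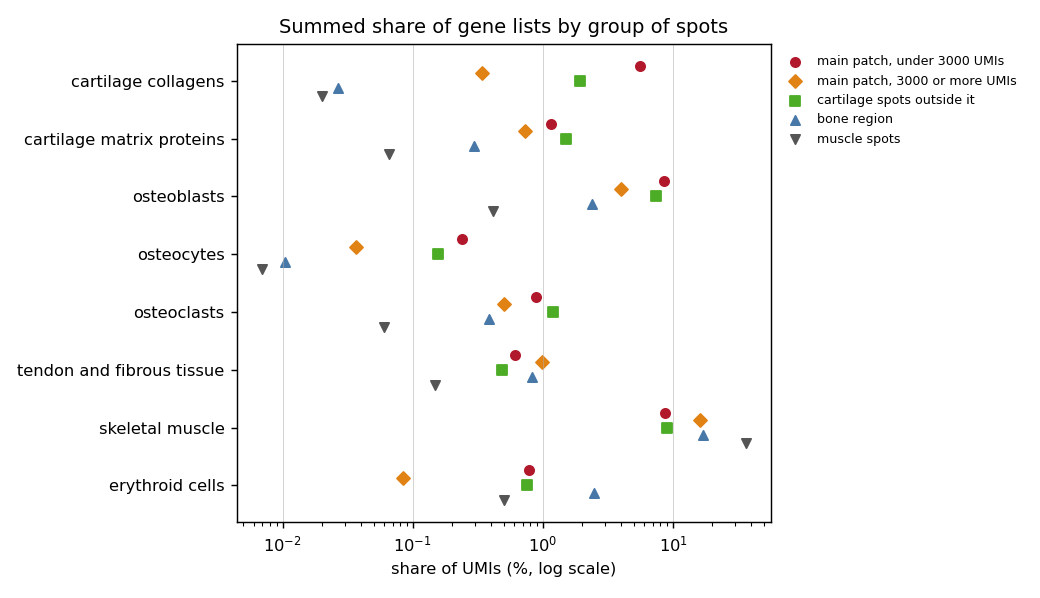
Summed share of UMIs in percent, on a log scale, of 8 gene lists in 5 groups of Control spots (main patch under and over 3000 UMIs per spot, cartilage spots outside it, the bone region and muscle spots). The cartilage collagens include the pair that chose the spots, and are at 5.60% in the shallow main patch and 0.0199% in muscle spots, while osteoblast genes are higher in all 3 cartilage groups than in the bone region.

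Levels around the main patch showed how sharply each gene ended. Normalized UMIs per spot of Col2a1 were 55.6 inside the patch, 4.87 in the ring of spots next to it and 0.202 beyond 8 steps of 100 µm. The spots next to a patch chosen by a limit had to be lower, so the drop at its border is not independent of the rule, and its cause was not tested. Acan went from 0.833 inside to 0.356 in the ring next to the patch and 0.0318 beyond 8 steps.

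Genes shared with tendon and bone differed in their course around the patch, and several were as high in the first rings as inside. Comp was 14.9 inside, 11.2 in the ring next to the patch, 13.8 at 3 steps and 1.56 beyond 8 steps. Col1a2 declined at every ring to 4 steps, from 134 inside to 47.7, and Dmp1 from 2.14 to 0.847. Chad was 2.90 inside and 4.24 at 3 steps, Bglap 3.97 and 4.34, and Ctsk was 8.69 inside and 9.58 at 2 steps before 3.69 at 4 steps. Myh4 was lowest inside, at 93.0, was higher in each ring up to 385 at 8 steps, and was 257 beyond.

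**Figure D5:**
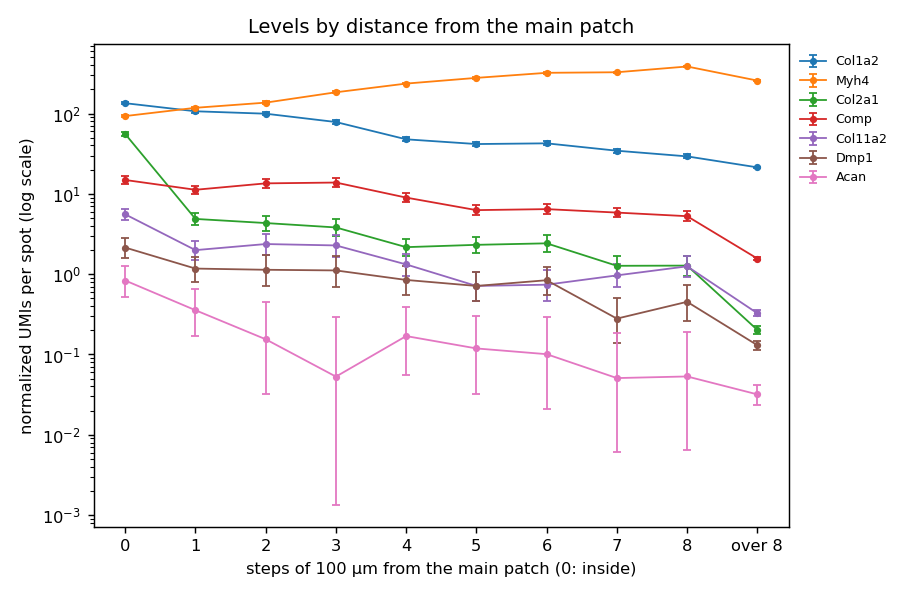
Normalized UMIs per spot, on a log scale, for 7 genes by the number of 100 µm steps from the main patch, with 0 inside it and the last group beyond 8 steps, and bars for the 95% interval of counting error. Col2a1 is 55.6 inside and 4.87 in the first ring, Col1a2 declines ring by ring to 5 steps, Comp stays between 11.2 and 14.9 up to 3 steps, and Myh4 is lowest inside the patch.

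Over the 54 spots, 5 genes of the 176 with at least 50 UMIs followed the normalized counts of Col2a1 most closely by Spearman correlation. These were Col11a2 at 0.70, Cst3, the secreted protease inhibitor cystatin C, at 0.62, Col9a1 at 0.55, Comp at 0.51 and Hist1h1a, a linker histone, at 0.48. The points share 1 library and differ in depth, and Col2a1 itself was correlated with UMIs per spot at -0.51, and the spots were chosen by the sum of Col2a1 and Col9a1, so the values are a description. Hist1h1a was slightly lower in the cartilage spots than in the others, with a log2 ratio of -0.48 (-0.72 to -0.25), which turned to 0.04 with library totals and to 0.62 without the spots of 3000 or more UMIs.

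In the Loaded section no spot met the rule, and its highest spot held 4 UMIs of the pair. With 0 of 1431 spots of at least 500 UMIs, a share of up to 0.21% would be allowed by counting if spots were independent, which spots clustered in patches are not. Its 4910716 UMIs included 121 of Col2a1, a level of 24.6 CPM against 105 CPM in the Control spots outside the rule, 26 of Acan and 3 of Matn3. Col11a2 had 808 UMIs there, 165 CPM against 95.3 CPM in the other Control spots. The Loaded section reached only 2.7 mm from its bone region, with 5 spots at or beyond that distance against 491 in the Control section, so loading and the part of the femur in the section cannot be told apart, and cartilage spots were not compared between the groups.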

How the data were processed

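Spatial gene expression was measured with the Visium assay for formalin-fixed, paraffin-embedded tissue on 1 longitudinal section of 1 decalcified femur per group. The authors hybridized probes, sequenced the libraries and made the deposited count matrices with Space Ranger (2.0.0 per the file headers); the submitters' processing notes name mm10, R 4.3.1 and Seurat. The files hold raw UMI counts per spot for 19465 genes, and 22 genes whose symbol is shared were left out by symbol. Positions came from the deposited spot lists, and the bone region from the study's list of bone spots. The sections share 557 barcodes, which are position codes of the array.

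Size factors were computed per section with scran 1.30.0 in R 4.3.3, and TMM factors with edgeR 4.0.16 as an alternative. UMI counts and size factors were summed over groups of spots in Python 3.11.15 (numpy 2.4.6, scipy 1.17.1, pandas 2.3.3, matplotlib 3.10.9), and the log2 ratio of 2 sums was given with an exact conditional binomial 95% interval, tested on simulated data. With 1 section per group there is no replicate, so intervals cover counting error only and no p-value is given. A gene was counted where at least 10 UMIs were counted or expected in the cartilage spots, a reading of the limit chosen after the data were seen, and called at a 2-fold difference. A share listed at 0 was given the limit that 3 counts allow. Muscle spots were those outside the bone region and the cartilage spots with at least 10% of UMIs from muscle genes, a limit below the 16.8% of the bone region as a whole.

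The cartilage rule, the 23 gene lists and the tests were chosen with earlier results of these data known. Named are the label markers, the cartilage collagens, the up to 4 most abundant members of each other list and defining members at 0, the 20 highest ratios among genes with at least 20 UMIs in the cartilage spots and 50 in the section, the 10 lowest among genes with at least 50 expected UMIs, and the 5 genes that followed Col2a1 most closely. Other markers given with values were chosen after their values were seen. Upstream sequences are from RefSeq on GRCm38.p6, and gene positions from GENCODE M21.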

Additional observations from a re-analysis of the deposited data

Results flagged for a closer look

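Signal of the cartilage collagens was also present in spots that entered no comparison. Of the 64 Control spots under tissue with fewer than 500 UMIs, 4 held at least 10 UMIs of Col2a1 plus Col9a1, with a highest value of 19. These 4 spots had 373 to 492 UMIs in all, of which 17 were of Col2a1 and 37 of Col9a1. In the Loaded section, which had no cartilage spot, Col2a1 was counted 121 times in 103 spots, with at most 4 UMIs in any of them. Whether these UMIs came from chondrocytes was not tested.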

How the results depend on the processing

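The counts of 406 genes at least 2-fold higher and 748 at least 2-fold lower changed by over 1.5 times with most choices that alter the spots or the gene limit. They were 749 and 342 with library totals, 123 and 185 at 20 UMIs of the pair, 931 and 1307 at 0.2% of UMIs from the pair, 91 and 151 against other spots within 3 spots, 109 and 276 at 30 UMIs per gene, and 2607 and 2009 at 1 UMI per gene. At 5 UMIs of the pair 629 genes were higher. Leaving out each patch of 3 or more spots gave 45 to 406 higher and 80 to 747 lower genes, the lowest without the main patch, where 33 and 72 of the calls were shared. Alternatives chosen after seeing the data gave 2270 and 2009 with 10 UMIs over both sides, 121 higher with 10 UMIs expected from the sum, and 268 and 400 without spots of 3000 or more UMIs. Library totals moved the median of all genes by 0.52, totals without the 20 most abundant genes by 0.21 and TMM factors by -0.15.

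Of the 138 named genes, the ratio left its interval without turning in 102 against the near spots, 71 without the main patch, 67 at 20 UMIs of the pair, 64 with equal weight of spots and 60 without spots of 3000 or more UMIs. The direction turned in 9 against the near spots, 6 without the main patch and at most 4 under any other choice. Library totals gave Hist1h1a 0.0365. Equal weight of spots gave the hypoxia list median and Pgk1 0.11, Spp1 -0.0106, Chst12 -0.0809 and Mmp14 -0.0109. At 5 UMIs of the pair the macrophage median was -0.32, the adipocyte median and Adipoq 1.29, Fabp4 0.99 and Cfd 1.31. At 20 UMIs Thbs4 was -0.10, Mmp14 -0.0219, Mia3 0.10 and Hist1h1a 0.23. At 0.2% the proliferation median was 0.44, the granulocyte median 0.66, Camp 0.41, Ncf1 0.53, Adipoq 0.0056 and Hist1h1a 0.75. Against the near spots the hypertrophic median and Phospho1 were -0.0238, Fmod -0.0045, Prelp -0.0199, Spp1 and Cilp2 -0.52, Thbs4 -0.40, Lox -0.26, Pgk1 0.13 and Angptl7 -0.41. With a patch left out, Mmp13 ranged from -0.98 to 1.21, Hk2 from -0.99 to 0.16, Camp from -2.22 to 0.10, Ncf1 from -1.48 to 0.50, Adipoq from -1.66 to 0.50 and Hist1h1a from -0.55 to 0.37, the end that turned being without the main patch each time. With 10 UMIs expected from the sum the transcription factor list was left with Mef2c alone, at -1.66, and without spots of 3000 or more UMIs Mmp14 was -1.03 and Hist1h1a 0.62. The causes were not tested.

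No paired analysis was possible because each group had 1 section. The comparison of cartilage spots between Loaded and Control and its alternatives were not run, since the Loaded section had no such spot, and the 19 tendon spots were under the 20 required for a comparison. The depth of 93987 UMIs limits genes with few UMIs, and a gene left with 0 UMIs under a choice has no value there.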
